A study of Mus musculus with 9 samples.

Results

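The BCL2 family decides at the mitochondrial outer membrane whether a stressed cell starts the caspase cascade. BH3-only proteins sense stress and either activate the pore-forming effectors or occupy the survival members, which otherwise hold the effectors in check. The effectors Bax and Bak1 open the membrane, and cytochrome c then leaves the mitochondrion. Podocytes, epithelial cells wrapped around the capillaries of the glomerulus, are largely post-mitotic in the kidney, and their loss is a known feature of diabetic kidney disease.

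The 10 genes described here were taken from the deposited gene table by symbol, 10 of the 55385 genes it lists, and each symbol matched 1 gene. They are 5 BH3-only genes (Bmf, Bcl2l11, Bbc3, Pmaip1 and Bid), 2 effectors (Bax and Bak1) and 3 survival genes (Bcl2, Bcl2l1 and Mcl1). All 10 passed the filter on low counts, which left 17680 genes for testing. They were measured by RNA sequencing in 9 libraries of the mouse cell line MCP5, labelled as wild-type podocytes, with 3 libraries left blank as control, 3 given high glucose (50 mmol/L) and 3 given advanced glycation end products (400 µg/mL). Such products, AGEs for short, form when reducing sugars modify proteins. The sources used here give neither the time of exposure nor the glucose of the control medium, and no osmotic control or control for the AGE carrier protein was analysed here. The titles number the libraries but do not name separate cultures. The p-values therefore reflect how these libraries vary, which may be technical. All results are transcript levels of 1 cell line, and protein was not measured here. In bulk RNA, fewer cells of a type and less RNA per cell cannot be told apart.

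Total counts ranged from 46284878 (high glucose library 2) to 77242281 per library. On the first principal component, with 60.8% of the variance, the high glucose libraries lay at 53.5 to 54.3 and the other 6 at −31.5 to −21.3. The podocyte label was only partly borne out by defining markers. Wt1 had 11 counts in 1 library and was at 0 in the other 8, while Synpo and Podxl were detected in every library. The 9 listed podocyte markers summed to 722 to 1030 CPM in control, 867 to 937 under high glucose and 1080 to 1130 with AGEs. The 6 listed parietal epithelial markers summed to 562 to 593 CPM in control, 1480 to 1680 under high glucose and 554 to 695 in AGEs. Most of that sum's difference was Cd24a (184 ± 14.6 to 1060 ± 75.9 CPM). Pax2 and Epcam also rose, Cd44 fell (79.1 ± 4.90 to 60.2 ± 1.28 CPM, adjusted p = 0.0085), and Pax8 and Cldn1 did not pass. The 6 listed tubular markers summed to 123 to 125, 355 to 396 and 121 to 158 CPM in the same order, with Slc34a1, Umod and Aqp2 at 0 in all libraries. Of the other marker lists, mesangial markers summed to 35.4 to 37.6 CPM in control and 51.4 to 56.2 under high glucose. Most of that difference was Mcam, the only mesangial marker called (mean 15.5 CPM in control and 31.9 under high glucose, adjusted p = 4.95e-05). Pdgfrb had a lower mean under high glucose, Des and Pdgfra had higher means, and none of these passed. Endothelial markers summed to 0.218 to 0.392 CPM in control and 0.571 to 0.965 under high glucose. That sum was nearly all Pecam1, which did not pass (adjusted p = 0.12). Leukocyte markers summed to 20.6 to 23.3 and 9.58 to 12.8 CPM, a sum that was mostly Cd68, which fell (adjusted p = 0.00419). The other 3 leukocyte markers had higher means under high glucose, all under 1 CPM, and did not pass. The part of all these in the results below was not tested.

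The sequence before the transcription start is shown for 4 members with a distinct response to high glucose: Bmf and Bcl2l11, the BH3-only genes that rose, Mcl1, a survival gene that rose, and Bax, the effector that fell. In the RefSeq promoter table (GRCm38.p6) 9 of the 10 members were looked up, and each had an entry. Pmaip1 was left out beforehand and was not looked up. For each of the 4, the outermost start was used and the 250 bases before it are printed 5′ to 3′ on the gene's strand. Capitals mark matches on either strand to CCAAT (the box of that name), GGGCGG (GC box), CACGTG (E-box palindrome), GTAAACA (the core bound by FOXO factors) or TGACGTCA (cyclic AMP response element).
Bmf, chr2:118549687-118549936, minus strand: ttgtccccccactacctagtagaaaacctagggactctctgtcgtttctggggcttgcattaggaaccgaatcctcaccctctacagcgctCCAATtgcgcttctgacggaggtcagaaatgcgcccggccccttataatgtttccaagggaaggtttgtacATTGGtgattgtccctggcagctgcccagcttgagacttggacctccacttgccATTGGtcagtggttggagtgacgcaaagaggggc
Bcl2l11, chr2:128125788-128126037, plus strand: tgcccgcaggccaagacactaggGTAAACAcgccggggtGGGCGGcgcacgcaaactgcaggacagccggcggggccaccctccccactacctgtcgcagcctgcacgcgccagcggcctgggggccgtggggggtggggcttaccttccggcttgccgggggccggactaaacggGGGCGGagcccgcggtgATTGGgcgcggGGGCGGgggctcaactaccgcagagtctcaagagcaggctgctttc
Mcl1, chr3:95658471-95658720, plus strand: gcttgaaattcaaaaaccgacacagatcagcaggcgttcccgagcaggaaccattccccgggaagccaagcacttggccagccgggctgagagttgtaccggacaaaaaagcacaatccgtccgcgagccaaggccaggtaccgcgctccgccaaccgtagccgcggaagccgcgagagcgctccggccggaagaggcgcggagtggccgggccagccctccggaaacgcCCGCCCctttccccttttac
Bax, chr7:45466899-45467148, minus strand: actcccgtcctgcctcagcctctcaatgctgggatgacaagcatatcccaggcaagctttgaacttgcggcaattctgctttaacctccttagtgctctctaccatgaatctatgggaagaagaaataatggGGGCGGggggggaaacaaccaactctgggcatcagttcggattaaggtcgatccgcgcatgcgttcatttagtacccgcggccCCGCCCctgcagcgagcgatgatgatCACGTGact
The Bmf window held 3 CCAAT boxes, which start at −159, −88 and −34 from the transcription start, and none of the other motifs. The Bcl2l11 window held the FOXO core at −227, 3 GC boxes and 1 CCAAT box. The Bax window held 2 GC boxes and the E-box palindrome at −9, and the Mcl1 window held 1 GC box. Among 32851 mouse windows of the same length, 33.8% held a CCAAT box, 32.7% a GC box, 6.02% the E-box palindrome, 3.17% the FOXO core and 1.55% the cyclic AMP response element. No printed match overlapped another. These matches describe letters only. Bmf has 3 listed starts, of which the second and the third lie inside the gene, and gene-level counts do not tell which was used.

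Per transcript length, the order of the 10 members did not follow their roles. In control the mean FPKM (fragments per length and depth, as deposited) was 66.2 ± 5.26 for Bax, 46.9 ± 2.22 for Mcl1 and 41.4 ± 3.10 for Bak1 (SD, n = 3), with no overlap between neighbours in that order. Bid (19.3 ± 0.383) and Bcl2l1 (19.2 ± 1.15) could not be told apart by their ranges, nor could Bcl2l1 and Pmaip1 (15.6 ± 6.96). Below them followed Bbc3 at 4.37 ± 0.494, Bcl2l11 at 1.69 ± 0.103, Bcl2 at 0.744 ± 0.0557 and Bmf at 0.0307 ± 0.0125. The order was the same in AGEs except that Bcl2l1 (24.1 ± 2.99) stood above Bid (22.2 ± 2.5), with overlapping ranges. In high glucose Bak1 (70.9 ± 7.41) and Mcl1 (68.6 ± 2.20) stood first with overlapping ranges, and Bax (47.6 ± 3.11) fell to the third place. Bcl2l11 (4.94 ± 1.26) stood above Bbc3 (3.36 ± 0.0913), and Bmf (2.67 ± 0.514) passed Bcl2 (1.22 ± 0.172), which became the lowest of the 10.

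To evaluate the response to high glucose, each member was compared with control by the edgeR quasi-likelihood test, with p-values adjusted over all 17680 genes. Of the 10 members 8 were called at an adjusted p under 0.05, against 39.3% of all genes tested. Bmf, Bcl2l11, Bak1, Bcl2 and Mcl1 rose, and Bbc3, Bid and Bax fell. Each role therefore held members that moved: 2 BH3-only genes rose and 2 fell, 1 effector rose and 1 fell, and 2 survival genes rose and none fell. Among all genes 19.6% were called higher and 19.7% lower (3466 and 3480), a split that became 4808 and 2287 with scaling by library size only, under which every member call above kept its direction. The median log2 fold change was 0.12 over the 10 members and 0.03 over all genes.

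**Figure D1:**
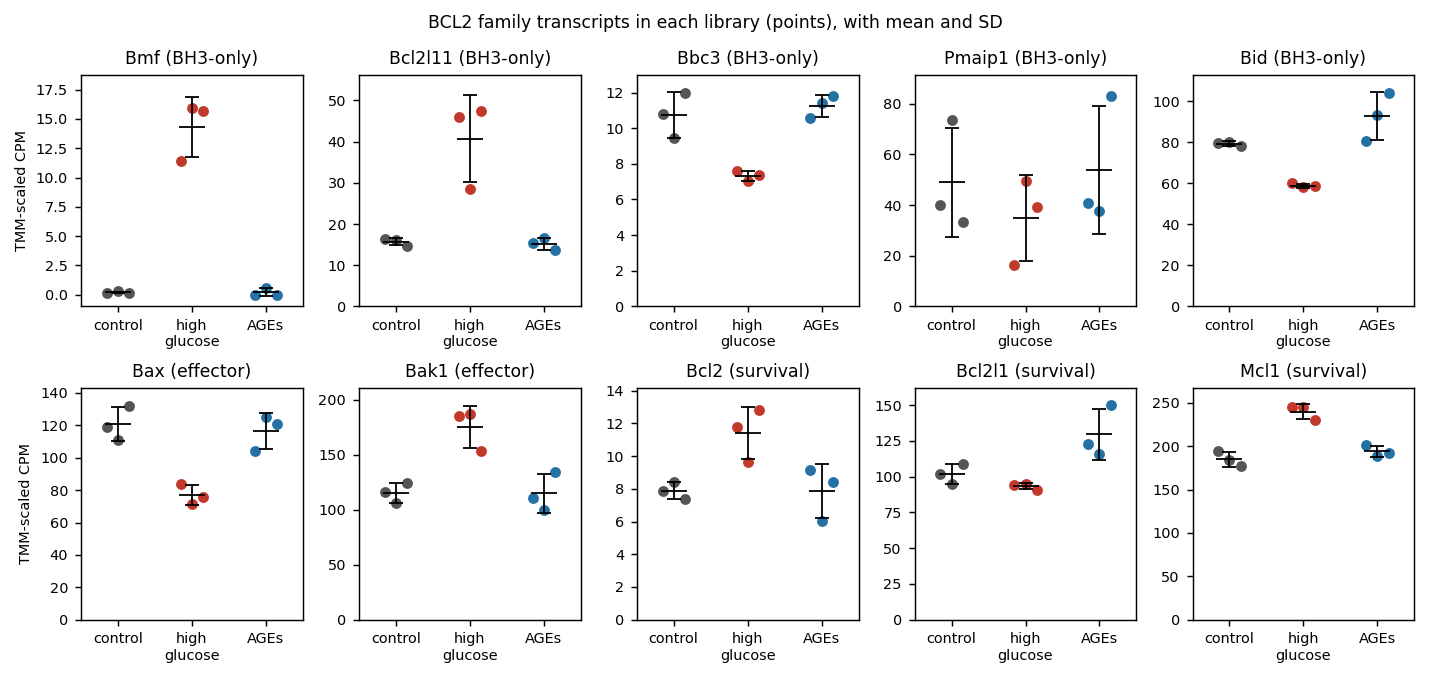
TMM-scaled CPM (vertical axes start at 0, or just below it for Bmf, a separate scale for each gene) of the 10 members in control, high glucose and AGEs. Points are libraries, the horizontal mark is the mean and the bar is the SD (n = 3). Bmf is near 0 outside high glucose, and the 3 groups of Pmaip1 overlap.

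Among the BH3-only genes, Bmf, which in resting cells is held at the actin-associated myosin V motor and is released by detachment or stress, changed most. It had 11, 19 and 8 counts in the control libraries, 944, 809 and 1249 under high glucose, and 0, 42 and 0 with AGEs. In CPM (counts scaled to library size and TMM factors) this was 0.173, 0.276 and 0.134 in control, 11.4, 15.9 and 15.7 under high glucose, and 0, 0.608 and 0 with AGEs. Every high glucose library lay far above the 6 others, which overlapped each other. The fold change was 72.6 (log2 fold change 6.18, SE 1.11, 95% interval 3.68 to 8.68, adjusted p = 0.00187). This placed Bmf 104th among all tested genes by rise, though its mean FPKM in high glucose exceeded only 44.8% of them. The control level rests on few counts, and the interval of the fold is wide. That interval uses an estimate of spread shared by all groups, which includes the AGEs libraries at 0, 42 and 0 counts. The biological coefficient of variation of Bmf was 1.02, above that of 94.4% of tested genes. Low counts over the whole table fell on 4 and 8 (9186 and 4896 entries) more often than on 3 and 7 (2519 and 1632), and the reason was not tested. The log2 fold change of Bmf was 1.82 by limma on log2(FPKM + 1), a scale that compresses low genes. Bmf (ENSMUSG00000040093) lies on GRCm38 chromosome 2 from 118528757 to 118549687, minus strand, and overlaps no other gene of the table.

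Bcl2l11 encodes Bim, a BH3-only protein that binds all survival members and can activate the effectors directly. It measured 16.4, 16 and 14.7 CPM in control, 46.1, 28.5 and 47.4 under high glucose, and 15.4, 16.5 and 13.6 with AGEs. High glucose library 2 was lower than its partners but still above every control and AGEs library. The rise was 2.59-fold (log2 fold change 1.37, SE 0.19, adjusted p = 0.00035). Bcl2l11 (ENSMUSG00000027381) lies on the same chromosome, from 128126038 to 128162547, plus strand, and overlaps no other listed gene.

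Bbc3 (Puma) and Pmaip1 (Noxa) are the BH3-only genes best known as p53 targets. Bbc3 measured 10.8, 9.44 and 12.0 CPM in control and 7.58, 7.03 and 7.35 under high glucose, without overlap. It fell by 0.55 on the log2 scale (SE 0.12, adjusted p = 0.00616). Pmaip1 measured 40.1, 73.6 and 33.5 CPM in control, 16.3, 49.3 and 39.2 under high glucose, and 40.8, 37.7 and 83.0 with AGEs. All 3 groups overlapped, with control library 2 and AGEs library 3 the highest and high glucose library 1 the lowest of the 9. Its log2 fold change was −0.49 (95% interval −1.52 to 0.53, adjusted p = 0.44). The biological coefficient of variation of Pmaip1 was 0.388, above that of 74.6% of tested genes and against a median of 0.186 over all genes. Bid, which caspase 8 cleaves into an active fragment and so ties death receptors to mitochondria, fell by 0.43 (SE 0.09, adjusted p = 0.00495). Its values were 79.8, 80.2 and 78.1 CPM in control and 60.0, 58.1 and 58.7 under high glucose, with a narrow spread in each group. Bid overlaps Bcl2l13 on the opposite strand over 913 bases. Bcl2l13 had 59440 counts over all libraries against 46714 for Bid and a log2 fold change of −0.10 (adjusted p = 0.23).

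The effectors moved in opposite directions. Bax, which is mostly cytosolic until activated, measured 119, 111 and 132 CPM in control and 83.5, 71.5 and 75.5 under high glucose. All 3 high glucose libraries lay below all control libraries, a log2 difference of −0.65 (SE 0.10, adjusted p = 0.000793). Bak1, which sits in the mitochondrial membrane, measured 116, 106 and 124 CPM in control and 185, 187 and 153 under high glucose. It rose 1.52-fold (log2 fold change 0.60, SE 0.13, adjusted p = 0.00426) without overlap. The FPKM ratio of Bax to Bak1 within a library was therefore 1.58, 1.61 and 1.62 in control, 0.689, 0.584 and 0.755 under high glucose, and 1.43, 1.93 and 1.37 with AGEs. Bax exceeded Bak1 in all 6 libraries without high glucose, and Bak1 exceeded Bax in the 3 with it. Bak1 overlaps Ggnbp1 and Gm50253 on the opposite strand along its whole length, but these had 1899 and 1998 counts over all libraries against 82300 for Bak1. Gm50253 itself was higher in high glucose by 2.04 on the log2 scale (adjusted p = 0.0199).

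Of the survival genes, Mcl1, whose protein is short-lived and is a preferred partner of Noxa and Bim, measured 194, 184 and 177 CPM in control and 245, 245 and 230 under high glucose. It rose 1.30-fold (log2 fold change 0.37, SE 0.06, adjusted p = 0.00146), the smallest of the called rises, from the gene with the lowest coefficient of variation of the 10 (0.0833). Bcl2 itself measured 7.87, 8.44 and 7.38 CPM in control and 11.8, 9.67 and 12.8 under high glucose. The groups did not overlap, and the log2 fold change was 0.53 (SE 0.18, adjusted p = 0.039). That call was lost when any of 5 of the 6 libraries was left out in turn (adjusted p = 0.0646 to 0.128, high glucose library 2 being the exception), with the replicate number as a block (0.0562) and with no filter on low counts (0.0578). Bcl2l1, which encodes Bcl-xL, measured 102, 95.1 and 109 CPM in control and 94.2, 94.9 and 90.9 under high glucose. Its log2 fold change of −0.13 (95% interval −0.36 to 0.10, adjusted p = 0.357) did not pass. On FPKM or with no scaling beyond library size it was 0.05, so its direction depends on the scaling.

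**Figure D2:**
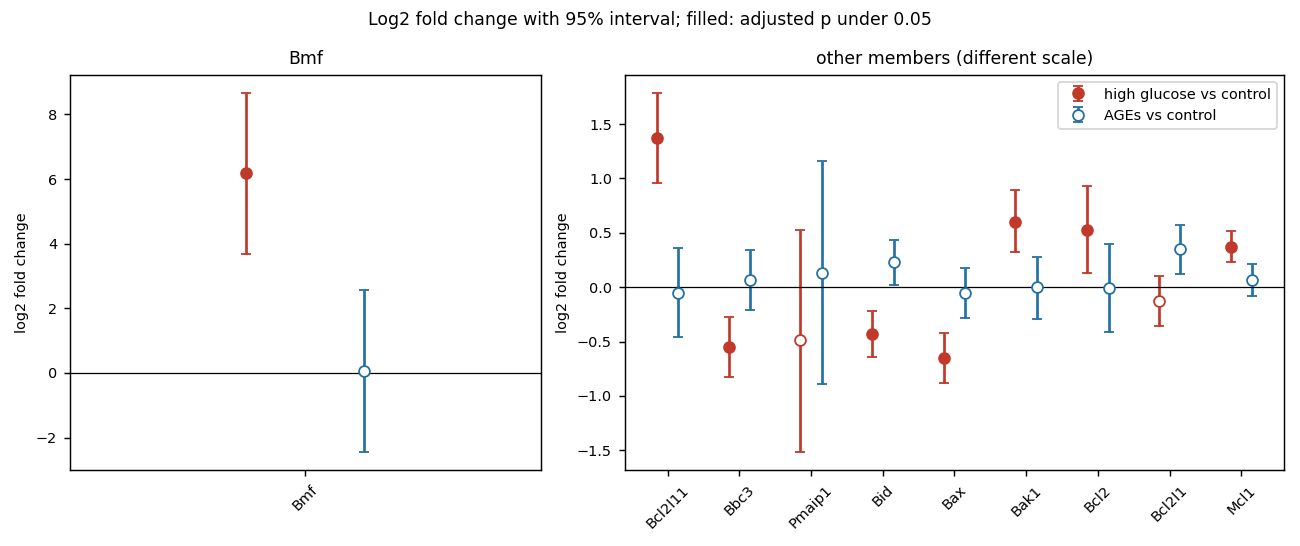
Log2 fold change (vertical axes, Bmf on its own scale) of each member in high glucose (red) and AGEs (blue) against control, with 95% intervals from the edgeR fit. Filled points passed an adjusted p of 0.05. In high glucose 8 of 10 are filled and in AGEs 0 of 10.

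On GRCm38, Bbc3 (ENSMUSG00000002083) lies on chromosome 7 from 16308393 to 16318205, Bid (ENSMUSG00000004446) on chromosome 6 from 120891930 to 120916853, and Bax (ENSMUSG00000003873) on chromosome 7 from 45461697 to 45466898. Bak1 (ENSMUSG00000057789) lies on chromosome 17 from 27019810 to 27029009, and Bcl2 (ENSMUSG00000057329) on chromosome 1 from 106538178 to 106714274. Bcl2l1 (ENSMUSG00000007659) lies on chromosome 2 from 152780668 to 152831728, and Mcl1 (ENSMUSG00000038612) on chromosome 3 from 95658788 to 95663176. Pmaip1 is listed as ENSMUSG00000024521.

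Read by role, the 3 survival members took a larger share of the summed FPKM of the 10 members in high glucose, and Bmf and Bcl2l11 a larger share of the BH3-only sum. Bcl2l2, a survival gene outside the 10, is not in these sums and fell from 84.7 ± 1.91 to 27.0 ± 15.9 CPM. The survival genes held 32.3, 30.7 and 30.1% of the summed FPKM of the 10 members in control, 36.3, 35.8 and 36.4% under high glucose, and 35.7, 32.5 and 31.1% with AGEs. The high glucose shares were above all others. The mean survival sum was 66.8 FPKM in control and 89.7 under high glucose, and most of that difference was Mcl1 (46.9 to 68.6). Bcl2l1 went from 19.2 to 19.9 and Bcl2 from 0.744 to 1.22. The BH3-only share was 17.9, 22.8 and 16.5% in control and 13.3, 17.0 and 17.8% under high glucose, with overlap. It was 18.3, 19.1 and 23.2% with AGEs, and highest in control library 2 and AGEs library 3, where Pmaip1 was highest. The ratio of summed BH3-only to survival FPKM was 0.614 ± 0.110 in control, 0.443 ± 0.0671 under high glucose and 0.615 ± 0.119 with AGEs (mean ± SD, n = 3). Within the BH3-only sum, Bmf and Bcl2l11 together made up 4.67, 3.65 and 4.42% in control, 23.0, 14.8 and 20.6% under high glucose, and 4.30, 4.53 and 2.52% with AGEs. The ratio of Bax to Bcl2, often used as an apoptosis index, was 88.5, 76.6 and 104 in control and 41.3, 43.0 and 34.2 under high glucose. It was 65.8, 121 and 83.3 with AGEs. The ratio of Mcl1 to Bcl2l1 was 2.55, 2.60 and 2.18 in control, 3.50, 3.47 and 3.39 under high glucose, and 2.20, 2.19 and 1.71 with AGEs. Shares and ratios within a library do not depend on library scaling. They describe transcripts, carry no test, and weigh each gene by its abundance.

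**Figure D3:**
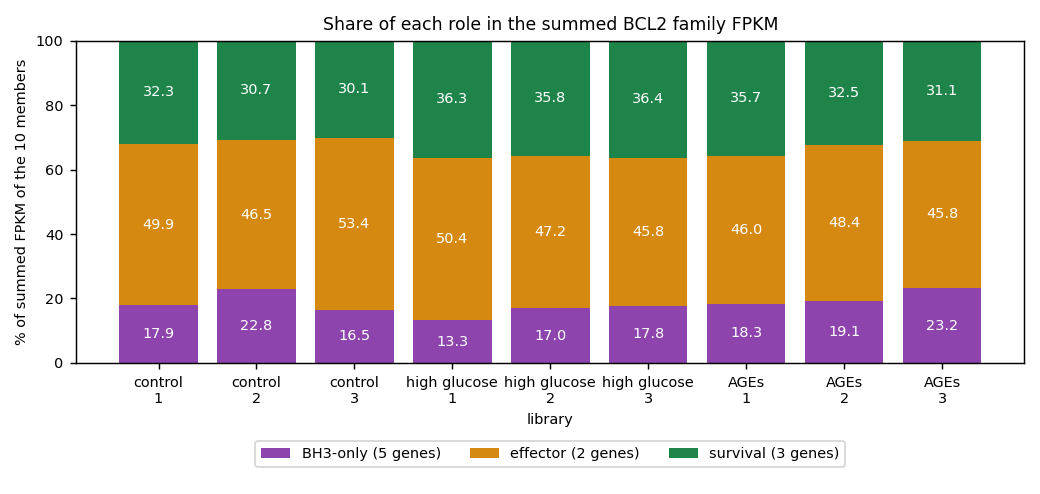
Percent of the summed FPKM of the 10 members (vertical axis) held by BH3-only, effector and survival genes in each of the 9 libraries (horizontal axis). The survival share is 35.8 to 36.4% under high glucose and 30.1 to 32.3% in control, while the BH3-only shares overlap.

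To evaluate the response to AGEs, the same members were compared with control, using the same 3 control libraries as above. By edgeR 0 of 10 members were called, against 0.0848% of all genes (15 of 17680, with 0.0509% higher and 0.0339% lower). At an unadjusted p under 0.05 there were 2, Bcl2l1 and Bid, and DESeq2 and limma also called 0. Bcl2l1 measured 123, 116 and 150 CPM in AGEs, all above the control libraries, a log2 difference of 0.35 (SE 0.10, 95% interval 0.12 to 0.57, adjusted p = 0.284). Bid measured 80.6, 93.5 and 104 CPM in AGEs, also above control, a log2 difference of 0.23 (SE 0.09, adjusted p = 0.381). Both were highest in AGEs library 3, the library in which Pmaip1 was highest too. For Bcl2l11, Bbc3, Bax, Bak1, Bcl2 and Mcl1 the 95% intervals all lay between −0.46 and 0.41, so changes beyond that size were outside them. For Bmf the interval was −2.46 to 2.58, where 2 AGEs libraries were at 0 counts and the other at 42. Without AGEs library 2 the fitted value was −6.74 (adjusted p = 0.0609), which depends on the prior count because both remaining libraries were at 0.

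The 2 treatments were compared with each other in the same fit, a contrast that shares its high glucose libraries with the comparison against control. Of the 10 members 9 were called, 4 higher and 5 lower in AGEs, against 39.9% of all genes (19.7% higher and 20.2% lower). Bmf was 69.5-fold lower in AGEs (log2 fold change −6.12, SE 1.10, adjusted p = 0.00187), a value set by AGEs library 2, without which the AGEs libraries held 0 counts and the fit gave −12.92, and Bcl2l11 was 2.69-fold lower (adjusted p = 0.00027). Bak1, Bcl2 and Mcl1 were also lower, by −0.61, −0.54 and −0.31 on the log2 scale. Bbc3, Bid, Bax and Bcl2l1 were higher in AGEs, by 0.62, 0.65, 0.60 and 0.48. Bcl2l1 passed in this comparison (adjusted p = 0.00452) although it did not pass in either treatment against control. Its AGEs libraries (116 to 150 CPM) lay above and its high glucose libraries (90.9 to 94.9) below the control range (95.1 to 109). The Bcl2 call (adjusted p = 0.037) was lost without any of 6 libraries in turn (0.0515 to 0.122), namely control 1 or 2, high glucose 1 or 3, or AGEs 2 or 3. It was also lost with only the 6 libraries compared (0.0654) and with no filter on low counts (0.0562). Pmaip1 did not pass (adjusted p = 0.319).

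The genes whose pattern was most like that of Bmf over the 9 libraries were Thra, Plxdc1, Tcf7l1, Klf11 and C1qtnf6, with Pearson correlations of log2(CPM + 1) of 0.998, 0.995, 0.994, 0.993 and 0.992. These are a thyroid hormone receptor, a plexin-domain protein, a transcription factor of the Wnt pathway, a Kruppel-like factor and a C1q-related secreted protein. Of 10848 genes compared 1478 had a correlation above 0.9, and the points share the split of the libraries into high glucose and the rest. In high glucose against control Thra rose 3.8-fold (9.07 ± 0.601 to 34.5 ± 2.35 CPM, adjusted p = 3.35e-06) and Plxdc1 17.4-fold (0.428 ± 0.129 to 7.49 ± 1.14 CPM, adjusted p = 1.33e-05). Klf11 rose only 1.4-fold (13.7 ± 0.203 to 19.3 ± 1.05 CPM), so a like pattern does not mean a like size. Within the family the correlation with Bmf was 0.94 for Bcl2l11, 0.92 for Mcl1, 0.85 for Bak1 and 0.75 for Bcl2. It was −0.94 for Bbc3, −0.93 for Bax, −0.89 for Bid, −0.66 for Bcl2l1 and −0.42 for Pmaip1.

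The fitted rise of Bmf was above that of the other tested genes within 500 kb, a difference that was not tested. On the side of its start, Bub1b, a mitotic checkpoint kinase gene 48524 bases away, rose 3.54-fold (49.2 ± 3.58 to 174 ± 9.73 CPM, adjusted p = 6.86e-06), and Pak6, a kinase gene 113616 bases away, rose 2.86-fold (0.651 ± 0.171 to 1.86 ± 0.13 CPM, adjusted p = 0.00588). On the other side Srp14, of the signal recognition particle, measured 50.8 ± 17.7 and 48.9 ± 17.2 CPM and did not pass (adjusted p = 0.896). Eif2ak4, which encodes the amino acid sensor GCN2, rose 1.30-fold (adjusted p = 0.019). In AGEs none of the 4 passed.

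**Figure D4:**
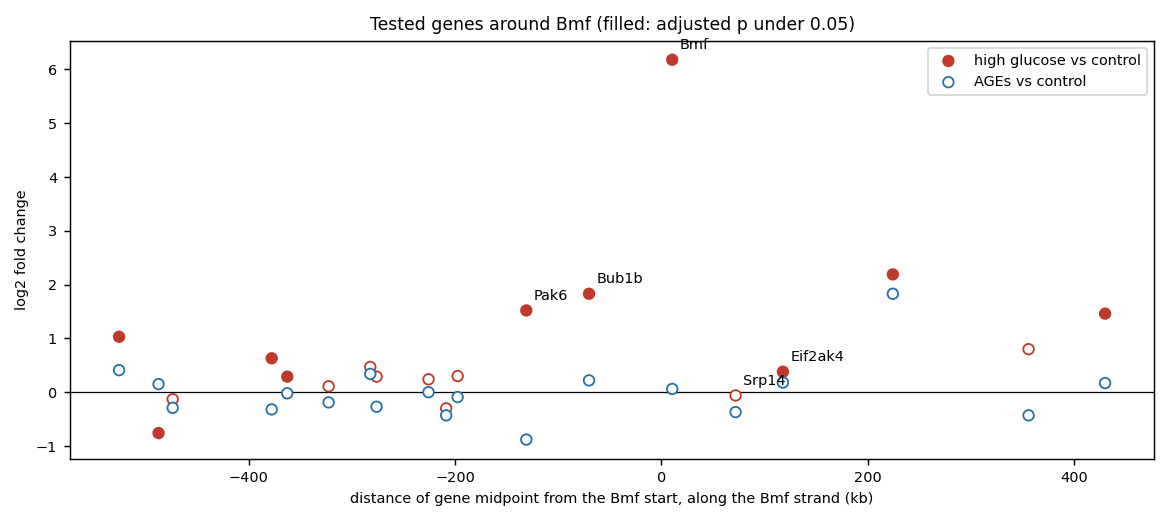
Log2 fold change (vertical axis) of every tested gene with its nearest end within 500 kb of Bmf against the distance of its midpoint from the Bmf start in kb along the Bmf strand (horizontal axis), for high glucose (red) and AGEs (blue) against control. Filled points passed an adjusted p of 0.05. Bmf at 6.18 stands above the unlabelled Gpr176 (named after its values were seen) at 2.19, Bub1b at 1.83 and Pak6 at 1.52.

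The members were then set beside the rest of the pathway in high glucose against control. Of 16 other BCL2 family genes listed, 10 passed the filter on low counts, and of these 1 rose and 3 fell (median −0.39 on the log2 scale), near the 39.3% called over all genes tested. Bik, a BH3-only gene, rose 1.83-fold (2.05 ± 0.603 to 3.74 ± 0.225 CPM, adjusted p = 0.0136), and Hrk, another, fell from 0.824 ± 0.0934 to 0.0778 ± 0.0693 CPM (adjusted p = 0.00874). Bnip3l, a mitophagy receptor, fell by 0.39 on the log2 scale. Bcl2l2, which encodes the survival protein Bcl-w, measured 86.8, 83.2 and 84.0 CPM in control, 18.0, 45.4 and 17.5 under high glucose, and 82.8, 18.2 and 65.5 with AGEs. Its fall against control was 3.15-fold (adjusted p = 0.0314), with a wide spread in both treatments.

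Downstream of the mitochondrion, 3 of 14 apoptosome and caspase genes rose and 2 fell (median −0.10), near the 39.3% called over all genes. Casp6, which encodes an executioner caspase, rose 1.68-fold (23.7 ± 1.64 to 39.7 ± 1.42 CPM, adjusted p = 0.000329). Cycs, which encodes cytochrome c, fell by 0.26 on the log2 scale (adjusted p = 0.00853). Htra2, a mitochondrial protease that counters caspase inhibitors, fell by 0.99 (45.9 ± 4.52 to 23.2 ± 2.53 CPM), but Aup1, which overlaps it on the other strand, had 43821 counts against 23481. Of 5 caspase inhibitors Birc2 rose 1.5-fold (adjusted p = 0.00108) and the other 4 did not pass, against 39.3% called over all genes. Aifm1, of the apoptosome and caspase list, was chosen after its values were seen and rose 1.15-fold (adjusted p = 0.0487).

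Among 17 tested upstream regulators 6 rose and 8 fell (median −0.06), where 19.6% of all genes were called higher and 19.7% lower. Ddit3, which encodes the stress factor CHOP and can induce Bcl2l11 and Bbc3, was 35.3-fold lower (1670 ± 18.7 to 47.3 ± 3.96 CPM, adjusted p = 2.91e-08), and Trib3, a CHOP target, was 4.86-fold lower. Mars, which overlaps Ddit3 on the other strand, had 141724 counts against 676338. Map3k5, the stress kinase ASK1 upstream of JNK, rose 3.93-fold (6.05 ± 0.826 to 23.8 ± 0.276 CPM, adjusted p = 5.62e-05). On the JNK side, Mapk8 was at −0.36 on the log2 scale (adjusted p = 0.00828) and Jun at −0.89 (adjusted p = 0.000205). Mapk9 was at −0.06 (adjusted p = 0.79). Mapk8, Jun and Mapk9 were named after their values were seen. Smad3, a TGF-beta effector, rose 3.70-fold (33.0 ± 3.39 to 122 ± 3.70 CPM, adjusted p = 3.07e-05). Among genes of the FOXO and p53 type, which were named after their values were seen, Foxo1 was at 0.67, Foxo4 at 0.45 and Trp53 at −0.66 on the log2 scale, each with an adjusted p under 0.05, and Foxo3 at 0.18 (adjusted p = 0.194).

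Of 11 genes for binding partners and turnover 3 rose and 1 fell (median 0.03), near the 39.3% called over all genes. Huwe1, a ubiquitin ligase that acts on Mcl1 protein, fell by 0.67 (adjusted p = 0.005), and Usp9x, a deubiquitinase of Mcl1, rose 1.62-fold (109 ± 19.3 to 177 ± 37.7 CPM, adjusted p = 0.0152). Bag3, a co-chaperone, and Tmbim6, a membrane protein that restrains Bax-induced death, rose 1.46-fold and 1.30-fold. Dynll2 and Dynll1, light chains that tether Bmf and Bim, were named after their values were seen and had log2 fold changes of 0.35 (adjusted p = 0.108) and 0.03 (adjusted p = 0.921). In the death receptor list 2 of 9 rose and 3 fell (median 0.20), against 39.3% called over all genes. Tnfrsf10b, the mouse TRAIL receptor, fell by 0.86 (129 ± 8.67 to 71.1 ± 2.67 CPM, adjusted p = 6.73e-05), and Tnfrsf1a, a TNF receptor, rose 1.71-fold (adjusted p = 0.00153). Ripk1 fell by 0.60, with Serpinb6a on the opposite strand at 89387 counts against 41849, and Mlkl, the pore of necroptosis, rose 1.35-fold. The third to fall, Fas, went from 2.55 ± 0.385 to 0.567 ± 0.290 CPM and was named after its values were seen. In AGEs against control none of the genes in these 6 lists was called by edgeR.

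**Figure D5:**
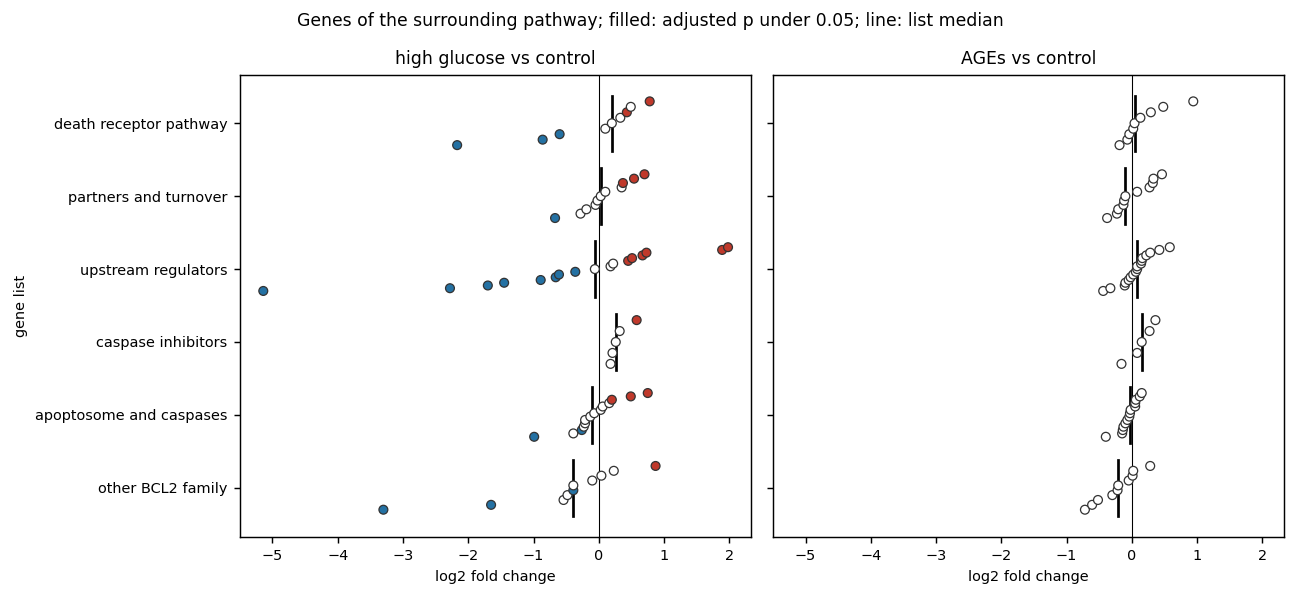
Log2 fold change (horizontal axes) of the tested genes of 6 pathway lists (vertical axis) in high glucose and AGEs against control. Each point is a gene, filled red or blue where it rose or fell at an adjusted p under 0.05, and the line is the list median. Ddit3 is the point at −5.14, and no point is filled in the AGEs panel.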

How the data were processed

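The authors deposited 1 table with whole-number counts per gene and FPKM per gene for each of the 9 libraries, per the file headers. The build GRCm38 and the tools FastQC and cutadapt 1.9 are named in the submitters' processing notes. The sources used here give no aligner, counter, annotation release or strand setting, so overlapping genes on opposite strands are uncertain. Per the labels' protocols, RNA was extracted with TRIzol. Counts were tested with edgeR 4.0.16 in R 4.3.3 (filterByExpr, TMM scaling, quasi-likelihood F test, two-sided) in 1 fit of 3 group means without covariates, with Benjamini-Hochberg adjustment over 17680 genes. The procedure was tested on simulated data. Standard errors are the absolute log2 fold change over the root of F. The alternatives were DESeq2 1.42.0, limma 3.58.1 on log2(FPKM + 1) and log2(FPKM + 0.1), other scalings and filters, 6 libraries only, a replicate block, and each library left out. Replicates differed by more than sampling noise (chi-square per degree of freedom 47.7 to 110), so none was counted as a copy. Named genes were the members, up to 4 called genes of each list by smallest p, the 5 genes most correlated with Bmf (mean FPKM of at least 1 in a group), its 2 nearest tested neighbours on each side and overlapping genes. Apart from cell type markers, genes outside this rule are marked as named after their values were seen. Some genes that this rule or the marker lists name are not reported here. Members and lists were chosen with earlier results of these data known. Intervals cover the spread between libraries as fitted.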

Additional observations from a re-analysis of the deposited data

How the results depend on the processing

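Under the alternatives run, no called member turned direction. Outside Bcl2, every member call in high glucose against control and in AGEs against high glucose was kept under every alternative run. In high glucose, Bcl2l1 went to 0.05 with library size only and with limma on both FPKM scales. In AGEs, where no member was called, Bak1 and Bcl2 went to 0 when genes under a mean CPM of 1 were dropped, and Bmf to −0.05 by limma on log2(FPKM + 0.1) and −0.44 with the replicate block. With a library left out, AGEs values ran from −0.13 to 0.09 for Bak1, −0.11 to 0.03 for Bax, −0.02 to 0.15 for Bbc3, −0.13 to 0.15 for Bcl2, −0.12 to 0.02 for Bcl2l11, −6.74 to 0.64 for Bmf and −0.32 to 0.55 for Pmaip1. The cause was not tested.

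Over all genes, AGEs against control gave 171 higher and 107 lower by DESeq2 (9 and 6 by edgeR) and 3 and 2 with the replicate block, and 6 to 14 higher and 4 to 12 lower with a library left out. With library size only, high glucose called 4808 higher and 2287 lower, and AGEs against high glucose 2251 higher and 5101 lower. By limma the latter gave 2304 higher and 5346 lower on log2(FPKM + 1), and 2316 and 5240 on log2(FPKM + 0.1), against 3481 and 3572 by edgeR. Over all genes the median change in high glucose was then 0.21 with library size only and 0.16 on log2(FPKM + 0.1), against 0.03, and small changes are read relative to that shift. Same-numbered libraries did not deviate together (correlations −0.15 to 0.08). No pairing by number was seen, but such correlations cannot show whether same-numbered libraries were handled together. Beside the values above, the replicate block moved only the Bcl2 call in high glucose against control (0.52, adjusted p = 0.0562).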
